A study of Mus musculus with 12 samples.

Results

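The genes described here are the BET (bromodomain and extra-terminal) proteins and the controls of the elongation kinase P-TEFb. They are Brd2, Brd3 and Brdt of the BET family, Hexim1, Hexim2 and Larp7 of the particle that holds P-TEFb inactive, and the kinase itself, Cdk9 with its cyclins Ccnt1 and Ccnt2. They were chosen by symbol, as the targets of the inhibitor used in the study and the elongation machinery that they recruit, and make up 9 of the 55413 genes in the deposited table. All 9 reached the minimum mean level of 3 set for the tests, as did 16459 genes in all.

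RNA was sequenced from cultured mouse cells that the labels call synovial fibroblasts, in 4 groups of 3 libraries. All came from BALB/c mice, were released from paws with collagenase, pooled over 2 to 3 paws, and grown for 5 passages. Every paw received monosodium urate (MSU) crystals, the crystals of gout. Non-primed vehicle libraries came from right paws injected on day 9 only, in mice given injections without inhibitor. Primed vehicle libraries came from left paws of vehicle mice, injected on day 0 and again on day 9. In vivo treated libraries came from primed paws of mice that received I-BET151 into the abdomen at 20 mg/kg per day, starting 1 day before the first crystals. In vitro treated libraries came from primed paws whose cultured cells were held in 1 µM I-BET151 for 24 h. RNA was taken on day 18. The labels do not say whether the mice behind the in vitro cells received vehicle, nor whether the 3 libraries of a group came from separate animals, so the p-values measure the spread between these libraries, which may be technical.

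BET proteins bind acetylated histones through paired bromodomains and bring transcription machinery to active genes, and I-BET151 occupies the pocket that reads the acetyl group. P-TEFb, made of CDK9 and a T-type cyclin, phosphorylates RNA polymerase II and its pausing factors so that a paused polymerase moves into the gene. A large share of P-TEFb is kept inactive by HEXIM proteins bound to the 7SK RNA, which LARP7 stabilises, and cells answer BET inhibitors and other blocks of elongation with more HEXIM1 messenger RNA, which is why that message is often used as a marker that such a drug has acted.

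Brd2 (ENSMUSG00000024335, chr17:34112023-34122634, minus strand) and Hexim1 (ENSMUSG00000048878, chr11:103116231-103119725, plus strand) are the members that passed the test in a comparison of treated with untreated primed paws, and the stretch upstream of each start is shown for that reason. Positions are those of the GENCODE annotation of GRCm38, and the sequences are those of RefSeq for build GRCm38.p6. Both are written 5′ to 3′ on the strand of the gene and end at the base before its GENCODE start, at chr17:34122635-34122857 for Brd2 and chr11:103116075-103116230 for Hexim1. Capitals mark matches to 3 motifs, the CCAAT box on its other strand (ATTGG), the GC box (GGGCGG) and a TATA box (TATATAA).
Brd2: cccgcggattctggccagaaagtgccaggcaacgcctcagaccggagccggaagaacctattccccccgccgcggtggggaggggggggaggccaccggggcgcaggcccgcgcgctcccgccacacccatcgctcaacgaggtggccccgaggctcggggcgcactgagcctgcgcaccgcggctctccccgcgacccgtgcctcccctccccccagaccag
Hexim1: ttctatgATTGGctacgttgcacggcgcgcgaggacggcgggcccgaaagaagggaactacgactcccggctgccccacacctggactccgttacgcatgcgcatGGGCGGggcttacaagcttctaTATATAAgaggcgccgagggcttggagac
The Hexim1 stretch holds 1 match to each of them. TATATAA begins 29 bases before the GENCODE start of Hexim1 and 123 bases before its RefSeq start, which lies 94 bases further into the gene. Of 32851 RefSeq promoter windows (250 bases before to 50 after a start), 3.24% hold the TATA box letters on either strand, 35.7% those of the GC box and 37.4% those of the CCAAT box. The TATA box letters were added after the Hexim1 sequence had been read. The Brd2 stretch is 75.3% G and C, against a median of 52.7% over all windows, and holds none of the 6 motifs searched on both strands, the other 3 being an E box (CACGTG), an AP-1 site (TGACTCA) and a cyclic AMP response element (TGACGTCA). RefSeq windows were given for 8 of the 9 members, and not for Hexim2. Among the 8, Hexim1 alone held the TATA box letters, 7 held those of the GC box in some window and 5 those of the CCAAT box.

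Levels are the authors' regularized log (rlog), a log2 scale of normalised counts in which differences of weakly expressed genes are shrunk. The libraries did not all match the labelled cell type. The mean of 15 melanocyte genes, such as Tyrp1 and Dct, lay at 12.6 to 14.0 in the 3 non-primed libraries and in in vivo libraries 2 and 3, and at 5.61 to 6.69 in the other 7. Of these genes Ednrb went the other way, at 3.28 to 5.31 in the first 5 and 5.80 to 9.35 in the other 7. Sox10 still read 10.17 to 13.36 in those 7. In the same 5 libraries 10 fibroblast genes averaged 7.54 to 11.6, 8 macrophage genes 3.74 to 6.84 and 10 cell cycle genes 13.6 to 13.9, against 14.4 to 15.4, 8.25 to 10.8 and 10.98 to 11.70 in the rest. Fbln1 of the fibroblast genes was not lower in the 5, at 12.09 to 13.79 against 11.75 to 12.67. In vivo library 1 was nearest to in vitro library 1, at a root mean square difference of 0.442 over the tested genes, and lay 1.70 and 1.63 from the other 2 libraries of its group. Non-primed library 3 was nearer to in vivo libraries 2 and 3 (0.784 and 0.860) than to non-primed libraries 1 and 2 (1.21 and 1.32). Over the 9 members alone it differed from in vivo library 2 by 0.0639 and from non-primed libraries 1 and 2 by 1.05 and 1.13. Whether non-primed library 3 or in vivo library 1 was mislabelled cannot be told from these files. The labels are kept, and each non-primed and in vivo value is to be read as that of the libraries so labelled. Values without these libraries stand beside many of the results that rest on them. In these bulk samples fewer cells of a type and less RNA per cell cannot be told apart.

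**Figure D1:**
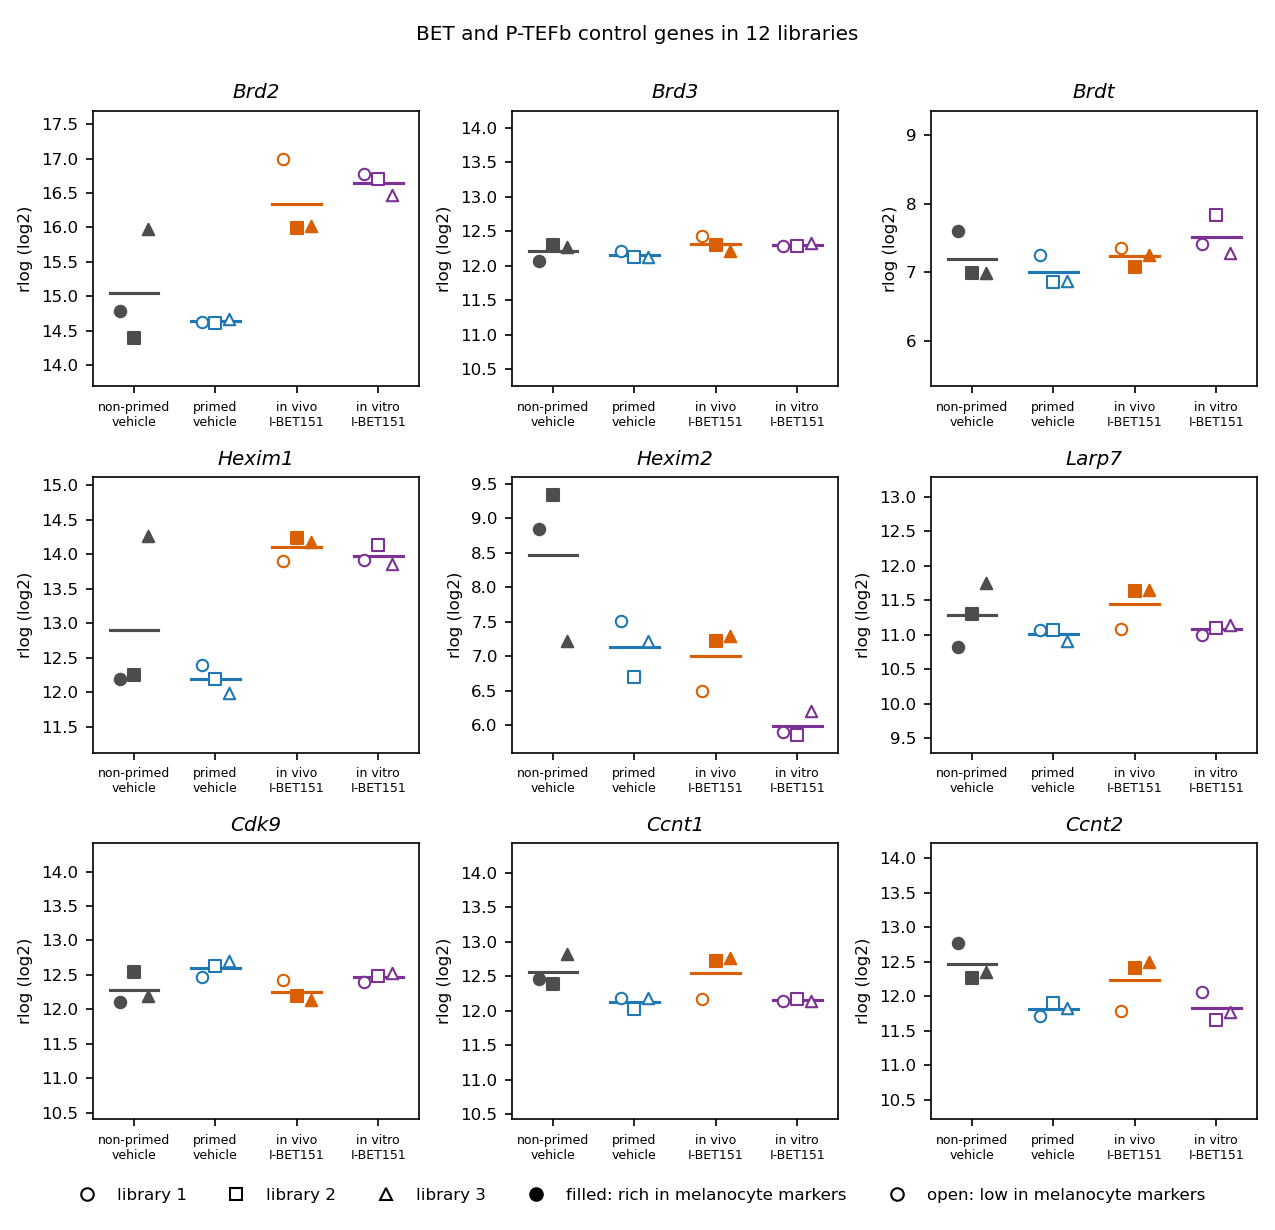
Each panel shows 1 member, with the rlog level (log2) of each library on the y axis by group, group means as lines, and filled symbols for the 5 libraries rich in melanocyte transcripts. Brd2 and Hexim1 sat high in all 6 treated libraries and in non-primed library 3, Hexim2 was highest in non-primed libraries 1 and 2, and Brd3 stayed between 12.07 and 12.43.

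To compare levels between genes, each rlog value was taken per kilobase of exon, by subtracting the log2 of the exon length. On that scale the order of mean levels was Brd2 (12.70), Hexim1 (11.49), Cdk9 (10.19), Larp7 (9.97), Brd3 (9.37), Ccnt1 (9.15), Ccnt2 (8.46), Hexim2 (5.90) and Brdt (4.88). Brd2 lay above Hexim1, Larp7 above Brd3, Ccnt1 above Ccnt2 and Ccnt2 above Hexim2 in 12 of 12 libraries. The other neighbours overlapped: Hexim1 exceeded Cdk9 in 10 libraries, Cdk9 exceeded Larp7 in 9, Brd3 exceeded Ccnt1 in 8 and Hexim2 exceeded Brdt in 10. Without the step for length, the mean rlog level of Brd2 lay above that of 99.4% of tested genes. The members also differed in how far they ranged. The median tested gene ranged over 1.60 on the rlog scale across the 12 libraries, while Brd3 ranged over 0.35, less than all but 1.31% of genes, and Cdk9 over 0.59, less than all but 8.62%. Brd2 (range 2.60), Hexim1 (2.28) and Hexim2 (3.49) ranged more widely than 69.7%, 65.0% and 78.5% of genes.

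Across the 5 comparisons, few members passed limma's test at an adjusted p under 0.05. Between primed and non-primed vehicle libraries, Hexim2 and Ccnt2 fell, 2 of 9 members, where 51.8% of tested genes were called and 22.9% were called lower. Between in vivo treated and primed vehicle libraries, Brd2 and Hexim1 rose, 2 of 9, where 39.7% of genes were called and 17.9% were called higher. Between in vitro treated and primed vehicle libraries Brd2 rose, 1 of 9, where 4.51% of genes were called and 1.76% were called higher. No member was called between in vitro and in vivo treated libraries or between in vivo treated and non-primed libraries, and neither was any other gene (0% in each). At an unadjusted p under 0.05, limma found 1 member and 32.5% of genes in the first of these and 3 members and 20.5% of genes in the second. These comparisons share libraries and are given side by side, not as independent results. Groups did not overlap for 2 members against 61.7% of genes in the priming comparison, 4 against 49.1% in vivo, 5 against 48.4% in vitro, 2 against 22.4% between the treatments and 1 against 17.3% for in vivo against non-primed. Without non-primed library 3 the members called became 2, 3, 3, 0 and 3 in that order, where 48.9%, 46.1%, 14.4%, 0% and 17.1% of genes were called.

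**Figure D2:**
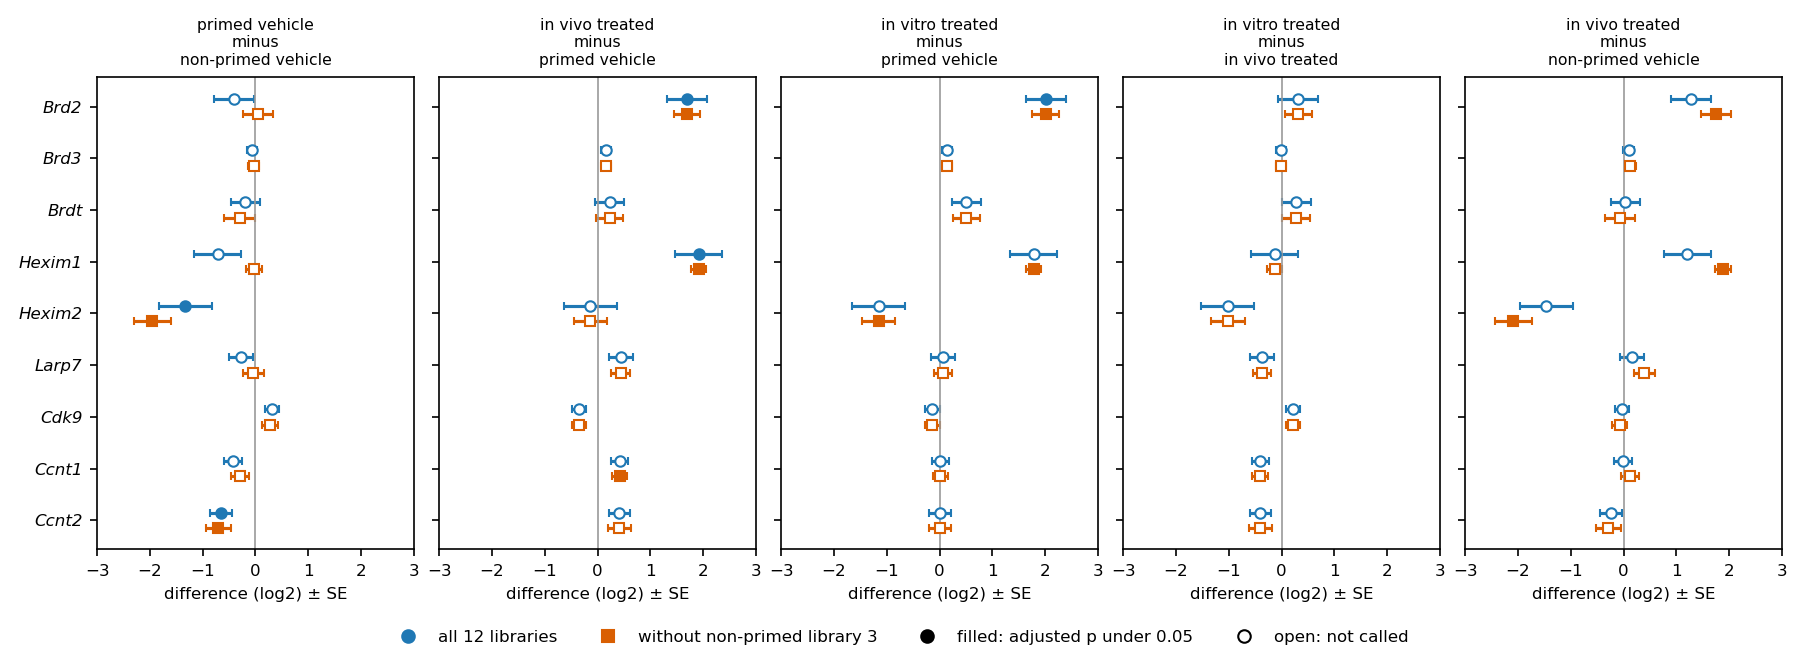
Each panel is 1 comparison, with the difference in rlog (log2) on the x axis, bars for the standard error, circles for the fit of 12 libraries, squares for the fit without non-primed library 3, and filled symbols at an adjusted p under 0.05. Brd2 and Hexim1 lie 1.70 to 2.01 to the right in both comparisons of treated with primed vehicle libraries, and error bars of Hexim1 narrow when non-primed library 3 is left out.

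Brd2, a widely expressed BET protein and a target of I-BET151, was higher in every treated library than in every untreated one. In the non-primed libraries its rlog level was 14.78, 14.40 and 15.98, in that order of number, and in the primed vehicle libraries 14.63, 14.61 and 14.67. It was 16.99, 16.00 and 16.02 in the in vivo treated libraries and 16.77, 16.70 and 16.47 in the in vitro treated ones. The highest untreated value was that of non-primed library 3, just under in vivo library 2, and the other 5 untreated libraries were at most 14.78. Against primed vehicle, Brd2 rose by 1.70 ± 0.38 (SE) in vivo (3.24-fold on the rlog scale, limma adjusted p = 0.00929) and by 2.01 ± 0.38 in vitro (4.03-fold, adjusted p = 0.0249). Priming itself gave -0.41 ± 0.38 (95% interval -1.25 to 0.43, adjusted p = 0.378), a value that was 0.049 without non-primed library 3. Only 0.753% of tested genes were likewise higher in all 6 treated than in all 6 untreated libraries, and Brd2 was the 1 member among them. Without non-primed library 3 the share was 5.81%, and Hexim1 joined Brd2.

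In vivo library 1, low in melanocyte transcripts, held the highest Brd2 level of all. In vivo libraries 2 and 3, with melanocyte means of 12.61 and 12.60, stood above non-primed libraries 1 and 2, whose means were 13.81 and 13.97. Non-primed library 3, with a mean of 12.60, was level with them in Brd2, at 15.98 against 16.00 and 16.02. With the 7 libraries low in melanocyte transcripts alone, the difference of in vivo library 1 from primed vehicle was 2.35 (limma adjusted p = 0.00571), with that lone library assumed to vary like the others. In the fit of all groups with in vivo library 1 alone in its group, the same difference did not pass (SE 0.48, adjusted p = 0.0579), where 1.18% of genes were called. Against non-primed vehicle that library was 1.94 higher (adjusted p = 0.0151, 35.3% of genes called). With the 5 libraries rich in melanocyte transcripts alone, in vivo libraries 2 and 3 were 0.95 ± 0.47 above the 3 non-primed ones and did not pass (adjusted p = 0.591, 0% of genes called). Leaving out non-primed library 3 as well, a choice made after seeing the data, gave 1.42 ± 0.14 (adjusted p = 0.00142, 37.4% of genes called). In the fit of 12 libraries the in vivo group was 1.28 ± 0.38 above non-primed vehicle and did not pass (adjusted p = 0.222). Without non-primed library 3 it was 1.75 ± 0.28 (adjusted p = 0.00502). In vitro minus in vivo treated libraries, the Brd2 difference was 0.31 ± 0.38 (95% interval -0.52 to 1.15), a value that became -0.34 with in vivo library 1 alone. The in vitro call on Brd2 was lost when primed vehicle library 1, 2 or 3 or in vitro library 1 or 2 was left out, at adjusted p of 0.0637 to 0.115 and differences of 1.95 to 2.03. Brd2 shares part of its locus with H2-DMa, which is on the opposite strand, and the strand setting of the counting is not given in the sources used here. H2-DMa stood 5.68 to 8.66 below Brd2 in every library, but among the libraries low in melanocyte transcripts it was higher in the treated ones, as Brd2 was. It read 9.98 to 10.28 in the in vitro libraries and in vivo library 1, 8.65 to 8.99 in primed vehicle, 7.89 and 7.90 in in vivo libraries 2 and 3 and 6.58 to 7.31 in non-primed libraries. Its difference from primed vehicle was 1.18 ± 0.54 in vitro (limma adjusted p = 0.220) and -0.17 ± 0.54 in vivo (adjusted p = 0.818), and its part in the Brd2 level was not tested.

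The other BET genes showed no called change. Brd3 (chr2:27445579-27507662, minus strand), also a ubiquitous BET protein, stood at 12.07, 12.30 and 12.28 in non-primed, 12.22, 12.13 and 12.13 in primed vehicle, 12.43, 12.30 and 12.22 in in vivo treated and 12.28, 12.29 and 12.33 in in vitro treated libraries. All 12 values lay within 0.35 of each other. Its difference from primed vehicle was 0.16 ± 0.10 in vivo (95% interval -0.063 to 0.37) and 0.15 ± 0.10 in vitro (-0.073 to 0.36), and both intervals end below 0.86, the lower bound of the Brd2 interval in vivo. The in vivo value became 0.34 and passed (adjusted p = 0.0340) when each library was centred on its median, a step that moved the median of all genes in that comparison from -0.049 to 0.13. Brdt (chr5:107331159-107387058, plus strand), the testis member of the family, was the lowest of the 9 per kilobase, at rlog levels of 6.86 to 7.83. Its in vitro libraries, at 7.42, 7.83 and 7.28, lay above the primed vehicle ones, at 7.26, 6.86 and 6.88. The difference of 0.51 ± 0.28 did not pass (adjusted p = 0.296, 95% interval -0.11 to 1.12). After quantile normalisation the Brdt values were -1.18 for priming (adjusted p = 0.00735) and 1.09 in vivo (0.0155), both called, against -0.20 and 0.23 on the authors' scale. Of 4 germ cell genes, Ddx4 alone reached the minimum level. It fell with priming by 3.46 and rose in vivo by 2.90. Ddx4 read 7.13 to 8.03 in the 5 libraries rich in melanocyte transcripts and 4.02 to 5.86 in the rest. Dazl and Sycp3 went the other way with priming. Dazl was at 0.46 to 1.55 in non-primed and 1.67 to 3.07 in primed vehicle libraries, and Sycp3 at 1.06 to 1.75 and 1.61 to 2.75. Prm1 was at -2.24 to -2.13 in every library, and the mean of the 4 genes ranged over 1.27 to 2.33 in the 7 low libraries and 1.60 to 2.28 in the rest. Their part in the Brdt level was not tested.

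Hexim1, the inhibitory subunit induced by BET inhibitors, fell into 2 levels with nothing between. The non-primed libraries read 12.19, 12.25 and 14.26, the primed vehicle ones 12.39, 12.19 and 11.98, the in vivo treated ones 13.90, 14.23 and 14.18, and the in vitro treated ones 13.92, 14.13 and 13.85. All 6 treated libraries were at 13.85 or above and 5 of 6 untreated ones at 12.39 or below. The sixth, non-primed library 3, held the highest Hexim1 level of all 12. Hexim1 rose in vivo by 1.92 ± 0.45 against primed vehicle (3.78-fold, limma adjusted p = 0.0109). The in vitro difference was 1.78 ± 0.45 (3.44-fold, 95% interval 0.79 to 2.77) and missed the threshold (adjusted p = 0.0509). The SE of 0.45 comes from a spread shared over all groups, to which the non-primed group contributes an SD of 1.18, against 0.15 to 0.21 in the other 3. Without non-primed library 3 the in vitro difference was the same with an SE of 0.14, and it passed (adjusted p = 0.00132). With only the 6 libraries compared it passed too (SE 0.13, adjusted p = 0.00171), where 30.3% of genes were called. In vitro minus in vivo treated libraries, the difference was -0.13 ± 0.45 (95% interval -1.12 to 0.86).

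Against non-primed vehicle, Hexim1 was 1.20 ± 0.45 higher in vivo and did not pass (adjusted p = 0.222). Without non-primed library 3 the difference was 1.88 ± 0.15 (limma adjusted p = 0.000569). The priming difference, -0.71 ± 0.45 (adjusted p = 0.201), became -0.033 without that library. Among libraries low in melanocyte transcripts, in vivo library 1 was 1.71 above primed vehicle, a difference that rests on that 1 library and has no spread of its own. Among the 5 rich libraries the in vivo ones were 1.31 ± 0.67 above the non-primed and did not pass (limma adjusted p = 0.591, 0% of genes called). With non-primed library 3 left out of these, a choice made after seeing the data, the difference was 1.99 ± 0.08 (adjusted p = 0.000350, 37.4% of genes called).

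**Figure D3:**
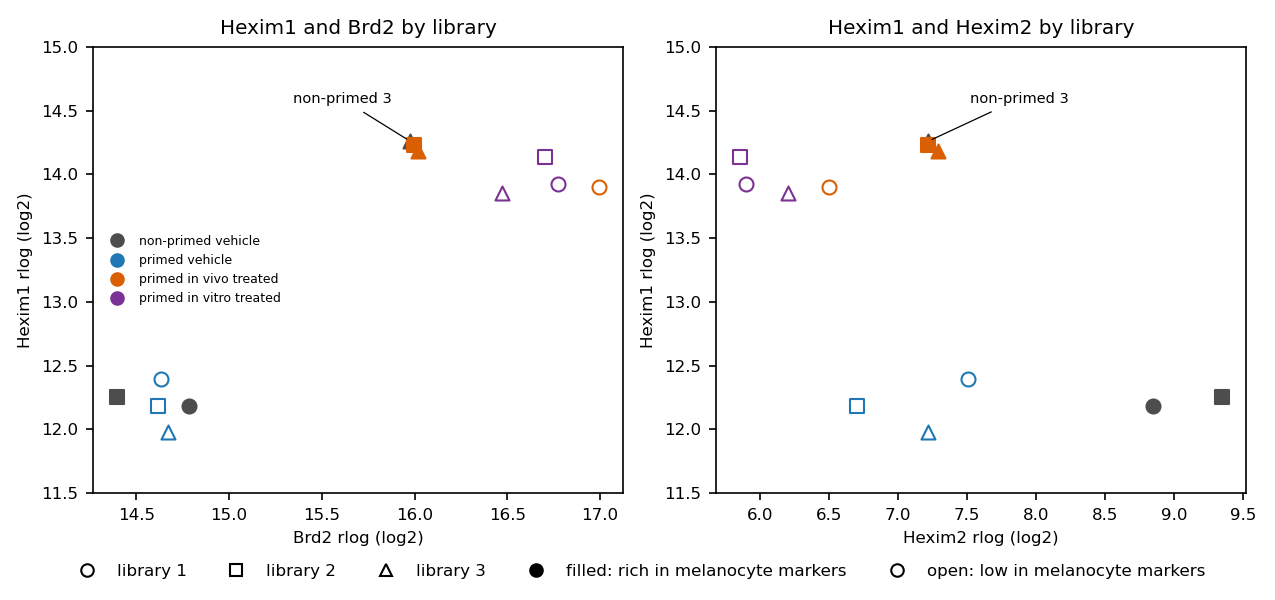
The left panel plots the Hexim1 rlog level against that of Brd2 and the right panel against that of Hexim2, 1 symbol per library, coloured by group and filled where melanocyte transcripts are high. In the left panel the 6 treated libraries and non-primed library 3 lie at Hexim1 levels of 13.85 and above, and the other 5 at 12.39 and below, and in the right panel Hexim2 is lowest in the in vitro libraries.

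Hexim2, the second HEXIM protein, binds 7SK and P-TEFb as HEXIM1 does. Its gene (chr11:103132429-103139876, plus strand) follows Hexim1 at a distance of 12703 bases on the same strand, with no annotated gene wholly between. It did not follow Hexim1 in level. Hexim2 read 8.85, 9.34 and 7.22 in non-primed, 7.51, 6.70 and 7.22 in primed vehicle, 6.50, 7.22 and 7.29 in in vivo treated and 5.90, 5.86 and 6.20 in in vitro treated libraries. The 2 highest values were those of non-primed libraries 1 and 2, the 3 lowest those of the in vitro group, and non-primed library 3 sat among the primed ones. Hexim2 fell with priming by 1.33 ± 0.50 on the rlog scale (2.51-fold, limma adjusted p = 0.0470), and by 1.95 without non-primed library 3 (adjusted p = 0.00403). That call was lost on leaving out any 1 of 10 other libraries, with adjusted p of 0.0587 to 0.165, and held without in vivo library 1 (0.0367), where 59.3% of genes were called. In the fit of only the 6 libraries compared it did not pass (adjusted p = 0.106).

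Hexim2 was lowest in the in vitro libraries. There Hexim2 was -1.15 ± 0.50 from primed vehicle with no overlap of the groups (2.23-fold, adjusted p = 0.196), in a comparison where 2.76% of genes were called lower. This passed without non-primed library 3 (SE 0.31, limma adjusted p = 0.0399) and with only the libraries compared (SE 0.27, adjusted p = 0.0200). In vivo the Hexim2 difference was -0.14 ± 0.50 (95% interval -1.25 to 0.98), and its sign turned under other scalings. Against non-primed vehicle it was -1.47 ± 0.50 (adjusted p = 0.222), and without non-primed library 3 it was -2.09 ± 0.35 (adjusted p = 0.00570). Per kilobase, Hexim1 exceeded Hexim2 by 2.78 and 2.35 on the log2 scale in non-primed libraries 1 and 2, by 4.33, 4.92 and 4.20 in primed vehicle, by 6.84, 6.46 and 6.33 in in vivo treated and by 7.46, 7.72 and 7.09 in in vitro treated libraries. Non-primed library 3, at 6.48, again read like the in vivo treated ones. In linear terms that ratio went from 5.10 and 6.87 in non-primed libraries 2 and 1 to 137 to 210.4 in vitro, on a scale that shrinks weakly expressed genes.

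Larp7 (chr3:127536714-127553349, minus strand), which binds and protects the 7SK RNA, read 10.82, 11.30 and 11.75 in non-primed, 11.07, 11.06 and 10.91 in primed vehicle, 11.08, 11.64 and 11.64 in in vivo treated and 10.99, 11.10 and 11.15 in in vitro treated libraries. Its 3 highest values were in non-primed library 3 and in vivo libraries 2 and 3. The in vivo groups did not overlap, yet in vivo library 1 exceeded the highest primed vehicle library by 0.0064, and the difference of 0.44 ± 0.23 did not pass (limma adjusted p = 0.139). Without in vivo library 1 it was 0.63 and passed (adjusted p = 0.0311), and without non-primed library 3 it did not (adjusted p = 0.0694). Priming gave -0.28 ± 0.23 (adjusted p = 0.325), and -0.044 without non-primed library 3. In vitro it was 0.067 ± 0.23 (95% interval -0.44 to 0.57).

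Cdk9 (chr2:32705784-32713076, minus strand), the kinase of P-TEFb, read 12.11, 12.54 and 12.20 in non-primed, 12.46, 12.63 and 12.71 in primed vehicle, 12.43, 12.19 and 12.13 in in vivo treated and 12.39, 12.48 and 12.52 in in vitro treated libraries. Every in vivo value lay below every primed vehicle value, by a margin of 0.036 at the closest pair. The difference of -0.35 ± 0.13 missed the threshold (limma adjusted p = 0.0601), as did the 0.32 ± 0.13 between primed and non-primed vehicle (adjusted p = 0.0713). Without in vivo library 1 both passed, at -0.44 (adjusted p = 0.0166) and 0.32 (adjusted p = 0.0427). Neither did without non-primed library 3 (adjusted p of 0.0570, and 0.155 at a priming difference of 0.27). In vitro the Cdk9 difference was -0.13 ± 0.13 (95% interval -0.43 to 0.16).

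The cyclins were higher in the libraries rich in melanocyte transcripts than in the rest. Ccnt1 (chr15:98538689-98570923, minus strand), the main partner of CDK9, read 12.46, 12.39 and 12.82 in non-primed, 12.18, 12.03 and 12.18 in primed vehicle, 12.17, 12.72 and 12.76 in in vivo treated and 12.14, 12.16 and 12.14 in in vitro treated libraries. Ccnt2 (chr1:127774164-127808061, plus strand), the alternative cyclin, read 12.77, 12.26 and 12.35 in non-primed, 11.70, 11.91 and 11.82 in primed vehicle, 11.78, 12.40 and 12.50 in in vivo treated and 12.06, 11.66 and 11.76 in in vitro treated libraries. For both genes all 5 libraries rich in melanocyte transcripts stood above all 7 others, as 19.6% of tested genes did. Ccnt2 fell with priming by 0.65 ± 0.21 (1.57-fold, limma adjusted p = 0.0228), a call lost without non-primed library 1, primed vehicle library 1 or primed vehicle library 3 (adjusted p of 0.0557 to 0.0834). The Ccnt2 difference without non-primed library 3 was -0.71 (adjusted p = 0.0340). Ccnt1 was -0.43 ± 0.17 with priming and did not pass (limma adjusted p = 0.0535). It was -0.29 without non-primed library 3 (adjusted p = 0.166), and it passed without in vivo library 1 (adjusted p = 0.00860). All 3 non-primed and none of the primed vehicle libraries were rich in melanocyte transcripts. Priming and cell makeup therefore cannot be told apart, for the cyclins or for any other gene or list compared between those groups.

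Neither cyclin was called with treatment in the fit of 12 libraries. The in vivo difference from primed vehicle was 0.42 ± 0.17 for Ccnt1 and 0.42 ± 0.21 for Ccnt2, short of the threshold (limma adjusted p of 0.0672 and 0.124). The Ccnt1 value passed without non-primed library 3 (adjusted p = 0.0442) and that of Ccnt2 did not (adjusted p = 0.129). In the 7 libraries low in melanocyte transcripts it was 0.038 for Ccnt1 and -0.034 for Ccnt2 (adjusted p of 0.837 and 0.908). In vitro it was 0.017 ± 0.17 (95% interval -0.35 to 0.39) and 0.015 ± 0.21 (-0.44 to 0.47). Without in vivo library 1 the in vivo differences were 0.61 and 0.64 and passed (adjusted p of 0.00237 and 0.00818), and the 2 cyclins then fell between in vivo and in vitro treatment by 0.59 and 0.63 (adjusted p of 0.00370 and 0.0118). Cell cycle genes stood higher in the same 5 libraries, and their part in the cyclin levels was not tested. The antisense gene 9330020H09Rik, which shares part of the Ccnt1 locus, stood 4.45 to 6.09 below Ccnt1 in every library.

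**Figure D4:**
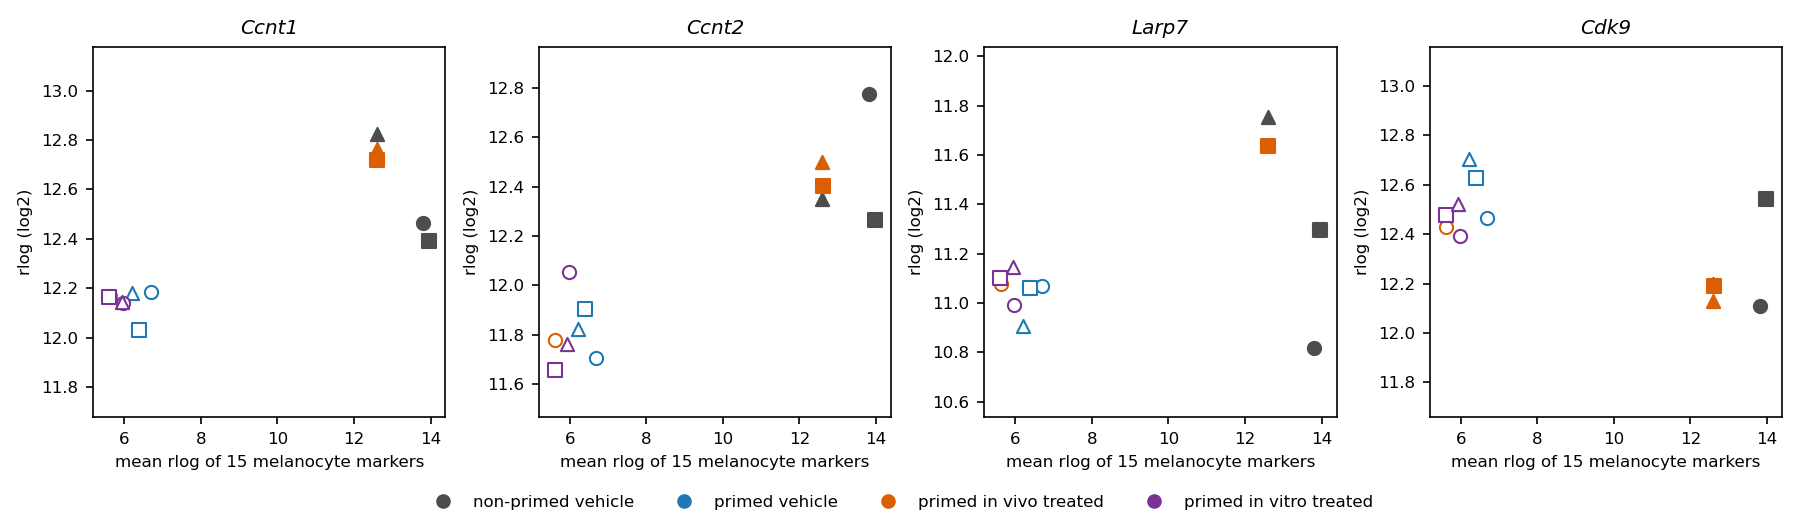
Each panel plots the rlog level of 1 member against the mean rlog of 15 melanocyte genes, 1 symbol per library, coloured by group and filled where that mean is above 10. Ccnt1 and Ccnt2 are higher in all 5 filled libraries than in the 7 open ones, while Larp7 and Cdk9 overlap between them.

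The genes with profiles most like those of Brd2 and Hexim1 were found as the tested genes with the smallest root mean square distance between profiles centred on the gene mean, over all 12 libraries and leaving out members and predicted genes. For Brd2 they were AA986860 (distance 0.199), Fam186a (0.263) and Pbld2 (0.300), all high in in vivo library 1. For Hexim1 they were Rogdi (0.157), Ppm1l (0.160) and Fmo5 (0.178), all high in non-primed library 3. Hexim1 and Brd2 were 0.425 apart by the same measure, so each had nearer profiles than the other. The 12 libraries share treatment and cell makeup, and the distances are a description.

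**Figure D5:**
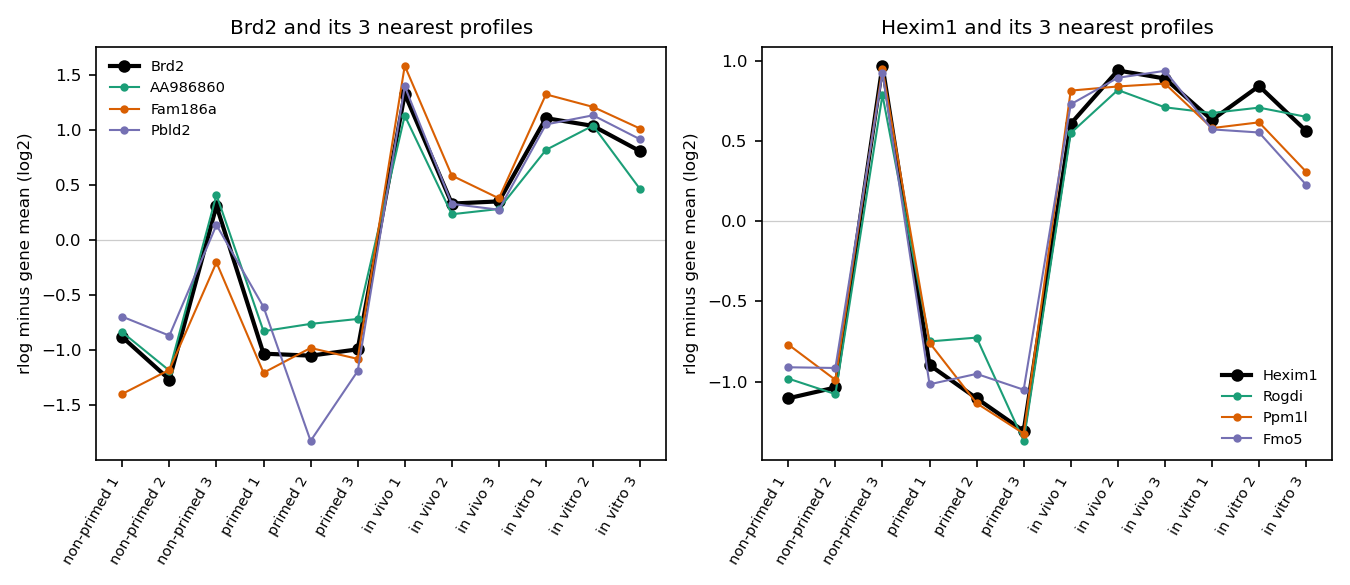
Each line is 1 gene, with its rlog minus its mean (log2) on the y axis and the 12 libraries on the x axis, for Brd2 (left) and Hexim1 (right) with the 3 nearest profiles of each. The Brd2 set peaks in in vivo library 1, and the Hexim1 set is as high in non-primed library 3 as in the treated libraries.

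The wider machinery was described with 3 lists: partners of P-TEFb and parts of the 7SK particle, factors of polymerase pausing and elongation, and bromodomain genes outside the BET family. With priming, where 51.8% of all genes were called, 5 of 22 tested partners rose and 8 fell, 3 of 28 elongation factors rose and 12 fell, and 2 of 32 bromodomain genes rose and 23 fell. Their median differences were -0.25, -0.30 and -0.57, beside 0.052 over all genes. Leaving out non-primed library 3 (48.9% of genes called), 15 bromodomain genes fell, and the medians were -0.13, -0.30 and -0.42.

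In vivo against primed vehicle, where 39.7% of genes were called, 7 partners rose and 3 fell, 11 elongation factors rose and 3 fell, and 16 bromodomain genes rose and 2 fell, with medians of 0.36, 0.095 and 0.45 beside -0.049. These counts differed with the libraries taken. Without in vivo library 1 they were 12 up and 5 down, 12 up and 3 down, and 25 up and 2 down, where 60.5% of genes were called. With in vivo library 1 alone in its group, 0 genes of each list were called in the fit of all groups (1.18% of genes), and the medians were 0.11, 0.0080 and 0.084. With only the 7 libraries low in melanocyte transcripts, the same single library gave 2 up and 3 down, 5 up and 1 down, and 3 up and 4 down (20.4% of genes).

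In vitro against primed vehicle, where 4.51% of genes were called, 0, 2 and 1 rose and 1, 1 and 0 fell, or 4.55%, 10.7% and 3.12% of the lists. With only the 6 libraries compared, where 30.3% of genes were called, 5 partners rose and 3 fell, 6 elongation factors rose and 2 fell, and 8 bromodomain genes rose and 4 fell. The 7 low libraries gave the same counts (30.3% of genes). Without in vitro library 1 or 2, only 0.14% and 0.0729% of all genes were called. None was called between the treatments or between in vivo and non-primed in the fit of 12 libraries.

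Ell2, a subunit of the super elongation complex that carries P-TEFb, read 13.01, 13.52 and 13.49 in primed vehicle, 10.61 and 10.46 in non-primed libraries 1 and 2 and 11.07 in non-primed library 3. It rose with priming by 2.63 ± 0.32 (limma adjusted p = 0.000767), and by 2.81 without non-primed library 3 (adjusted p = 0.00140). Ell2 read 10.46 to 11.17 in the 5 libraries rich in melanocyte transcripts and 12.43 to 13.52 in the rest, and the part of cell makeup was not tested. It fell in vivo by 1.79 ± 0.32 (adjusted p = 0.00449), to 12.43 in library 1 and 11.05 and 11.17 in libraries 2 and 3. The in vitro libraries read 12.50 to 12.55 in Ell2, also below primed vehicle, though it was not called there. Eaf1, its partner, fell in vivo by 0.95 ± 0.14 (adjusted p = 0.00217) and in vitro by 0.71 ± 0.14 (adjusted p = 0.0261), as the 1 partner called in vitro, a call lost with median-centred libraries (adjusted p = 0.0529). Ppm1g, a phosphatase that releases P-TEFb from 7SK, rose in vivo by 1.13 ± 0.22 (adjusted p = 0.00569). It read 12.74 to 13.09 in primed vehicle, 13.61 in in vivo library 1 and, in the other 2 of that group, 14.31 and 14.29. The in vitro libraries read 13.45 to 13.64 in Ppm1g, also above primed vehicle, though it was not called there. In the non-primed libraries Eaf1 was at 12.74 to 12.97 and Ppm1g at 13.71 to 14.40. Without in vivo library 1 the in vivo differences of Ell2, Eaf1 and Ppm1g were -2.23, -0.98 and 1.36. With only the 7 low libraries they were -0.92, -0.87 and 0.67.

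Ctr9 and Rtf1, which belong to or work with the PAF complex that travels with elongating polymerase, rose with both treatments. Ctr9 was at 12.43 to 12.46 in primed vehicle, 13.32 to 13.60 in vivo and 13.14 to 13.28 in vitro. Its differences were 1.05 ± 0.16 (limma adjusted p = 0.00232) and 0.77 ± 0.16 (adjusted p = 0.0290). Rtf1 was at 11.78 to 11.80 in primed vehicle, 12.77 to 12.85 in vivo and 12.50 to 12.75 in vitro. It rose by 1.00 ± 0.20 and 0.86 ± 0.20 (adjusted p of 0.00601 and 0.0403). For both genes the treated groups lay wholly above primed vehicle, in vivo library 1 included. The non-primed libraries, without inhibitor, read 13.06, 13.21 and 13.70 in Ctr9 and 11.94, 12.18 and 12.87 in Rtf1. Those values reach into or beyond the treated ranges. The priming difference of Ctr9 was -0.88 ± 0.16 (limma adjusted p = 0.00225). The Ctr9 and Rtf1 rises passed again without non-primed library 3, at adjusted p of 0.000316 and 0.000327 in vivo and 0.00278 and 0.00201 in vitro.

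Polr2a, the catalytic subunit of RNA polymerase II, rose in vivo by 1.47 ± 0.27 (limma adjusted p = 0.00490). It read 13.88 to 14.04 in primed vehicle, 15.10 in in vivo library 1 and, in the other 2 of that group, 15.60 and 15.58. The in vitro libraries read 14.91 to 15.14, also above primed vehicle, though Polr2a was not called there. Polr2a was at 14.40, 14.74 and 15.65 in the non-primed libraries, with a priming difference of -0.97 ± 0.27 (limma adjusted p = 0.0137). Cdk7, the kinase of TFIIH, fell in vitro by 0.71 ± 0.12 (adjusted p = 0.0179). It read 12.12 to 12.23 in primed vehicle, 11.35 to 11.62 in vitro and, lower still, 11.09 to 11.32 in vivo. Its priming difference was 0.93 ± 0.12 (limma adjusted p = 0.000968), from 11.13 to 11.44 in the non-primed libraries. Among the other bromodomain genes, the acetyltransferase gene Kat2b rose in vitro by 0.93 ± 0.22 (adjusted p = 0.0454), the 1 gene of its list that was called there. It read 11.09 to 11.34 in primed vehicle, 12.30, 12.50 and 11.63 in vitro and 12.22 to 12.84 in vivo. With priming Kat2b differed by -1.69 ± 0.22 (limma adjusted p = 0.000945), from 12.80 to 12.95 in the non-primed libraries. Sp140 fell in vivo by 4.38 ± 0.67 (adjusted p = 0.00269), from 7.38 to 7.98 in primed vehicle to 4.85 in in vivo library 1 and 2.83 and 2.30 in libraries 2 and 3. Atad2 rose in vivo by 2.05 ± 0.50 (adjusted p = 0.0126), with in vivo library 1 at 12.18 and libraries 2 and 3 at 14.34 and 14.40, beside 11.07 to 11.98 in primed vehicle. Non-primed libraries, also rich in melanocyte transcripts, read 14.32 to 14.52 in Atad2, and the part of cell makeup in it was not tested. Sp140 was at 2.40 to 4.49 in those libraries. In vitro Sp140 read 6.34 to 6.80, below primed vehicle, and Atad2 11.76 to 12.10, overlapping it, and neither was called there. Without in vivo library 1 the in vivo differences of Polr2a, Sp140 and Atad2 were 1.64, -5.14 and 2.78. With only the 7 low libraries they were 1.15, -2.85 and 0.59.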

How the data were processed

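RNA of 12 libraries was measured by sequencing, from polyadenylated RNA with a stranded kit, per the labels' protocols. The submitters' processing notes name cutadapt 1.18, STAR 2.6.1c, featureCounts of Subread 1.6.1, DESeq2 1.24.0 and the build GRCm38, with settings not given in the sources used here. What was deposited is a table of the authors' regularized log values, on a log2 scale from -2.24 to 20.6. Read counts cannot be had from it, depth per library is therefore unknown, and neither count models nor counting intervals apply. All 55413 identifiers matched a symbol, and where a symbol belonged to several rows (109 extra rows) the highest row was read for it, while all rows stayed in the fit.

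Genes with a mean rlog of at least 3 (16459) were fitted with limma 3.58.1 in R 4.3.3 (lmFit with 1 mean per group over 12 libraries, contrasts, eBayes with a variance trend). P-values are two-sided, were adjusted over these genes (Benjamini-Hochberg), and counted as called below 0.05. Exact permutation of 3 libraries against 3 has a smallest p of 0.1, so it served no comparison. The script was tested on simulated data. Alternatives changed the filter, variance model, scaling, libraries and replicate block. The members, gene lists and tests were chosen with earlier results of these data known. The text names the 9 members in every comparison, up to 4 called genes per list and comparison with the largest difference (a choice of those is printed), and the 3 nearest profiles of Brd2 and of Hexim1. Locations follow GENCODE release M21, and exon lengths are the union of exons.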

Additional observations from a re-analysis of the deposited data

How the results depend on the processing

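No library depth is known, 3 libraries a group limit precision, and 2 libraries stand apart from their groups. Calls moved with the libraries and the scaling. Filters at a mean of 5, no variance trend and robust moderation left the number of members called as reported in all 5 comparisons. Leaving out 1 library gave 0 to 4 members called for priming, 2 to 6 in vivo, 0 to 3 in vitro, 0 to 2 between treatments and 0 to 3 for in vivo against non-primed. In that order, 40.7% to 59.3%, 14.8% to 60.5%, 0.0729% to 16.1%, 0% to 49.1% and 0% to 17.1% of all genes were called. The cause of these moves was not tested. The highest counts came without in vivo library 1 (priming 4, in vivo 6, between treatments 2) and without non-primed library 3 (in vitro 3, in vivo against non-primed 3). Of all genes, 59.3%, 60.5% and 49.1% were called in the first of these fits, and 14.4% and 17.1% in the second.

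The share of all genes called stands in brackets beside each count of members. For priming, no filter gave 1 member called (27.6% of genes), quantile normalisation 4 (58%), array weights 4 (61.9%) and the replicate block 1 (49.5%). For in vivo against primed vehicle, median centring gave 4 (42.5%) and array weights 6 (76.4%). For in vitro against primed vehicle, array weights gave 3 (38.4%), only the libraries compared 3 (30.3%) and the replicate block 0 (1.05%). Between treatments array weights gave 6 (74.4%). For in vivo against non-primed, array weights gave 5 (39.9%) and only 4 rich libraries 5 (37.4%). The fits of 7 low, 5 rich and 4 rich libraries were chosen after seeing the data.

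Median centring and quantile normalisation moved the median of all genes for priming from 0.052 to -0.084 and -0.24, and in vivo from -0.049 to 0.13 and 0.19. Genes called higher and lower went from 4754 and 3774 to 4209 and 4434 and to 3858 and 5680 for priming, from 2946 and 3585 to 4029 and 2964 and to 4595 and 2967 in vivo, and from 289 and 454 to 338 and 416 and to 573 and 582 in vitro.

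The number of all genes called in vitro went from 743 to 4983 with only the libraries compared, 2368 without non-primed library 3 and 2644 without in vivo library 1. It dropped to 23 and 12 without in vitro library 1 or 2. Without primed vehicle library 1, 2 or 3 it was 244, 30 and 34, and with the replicate block 173. Between treatments it went from 0 to 8085 without in vivo library 1, and for in vivo against non-primed from 0 to 2812 without non-primed library 3.

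Whether replicate numbers pair the libraries is not known. Of 18 same-number pairs across groups, 4 had deviations from group means correlated above 0.1 (range -0.43 to 0.37). The 36 pairs of different number ranged over -0.44 to 0.43, and 3 of 12 libraries correlated best with their own number. Libraries that stand apart from their group weigh on such deviations, so these correlations cannot tell whether a pairing exists. Under the replicate block, Hexim2 was not called for priming (limma adjusted p = 0.0744), nor Brd2 in vitro (adjusted p = 0.0565).

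The sign of a member's difference turned in these cases. Of the turned values only the 2 of Ccnt1 with array weights and 4 rich libraries were called (limma adjusted p of 0.0151 and 0.0346). In vivo against primed vehicle, Hexim2 was 0.045 with median centring, 0.69 with quantile normalisation and 0.19 with array weights, and Ccnt2 was -0.034 with in vivo library 1 alone or only the 7 low libraries. In vitro, Ccnt2 was -0.023 with array weights. Between treatments, quantile normalisation gave -0.11 for Brd2 and -0.18 for Brdt, and array weights 0.051 for Brd3. In vivo library 1 alone and the 7 low libraries gave -0.34 for Brd2, 0.072 for Hexim1, 0.048 for Ccnt2 and 0.0028 for Larp7. In vivo against non-primed, median centring gave 0.014 for Cdk9 and 0.041 for Ccnt1, quantile normalisation -0.087 for Brdt, array weights -0.15 for Brdt and 0.29 for Ccnt1, in vivo library 1 alone 0.14 for Cdk9 and -0.21 for Larp7, the 5 rich libraries -0.029 for Brdt and 0.18 for Ccnt1, and 4 rich libraries -0.13 and 0.32. Leaving out 1 library, the range was -0.32 to 0.0080 for Brdt and -0.74 to 0.049 for Brd2 with priming, -0.36 to 0.11 for Hexim2 in vivo, -0.10 to 0.098 for Ccnt2 and -0.033 to 0.043 for Ccnt1 in vitro, and -0.060 to 0.045 for Brd3 between treatments. For in vivo against non-primed it was -0.073 to 0.39 for Larp7, -0.069 to 0.24 for Brdt, -0.12 to 0.094 for Cdk9 and -0.11 to 0.18 for Ccnt1.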
